A study of Drosophila melanogaster with 12 samples.

Results

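The genes that make, move and sense GABA in the fly head were examined for the transcript 3′ ends they use, namely Gad1, VGAT, Gat, Rdl, GABA-B-R1 and GABA-B-R2. They were found by their FlyBase identifiers in a list of 3′ end clusters, in which each cluster is a short stretch of genome where reads marked the end of a transcript. The 6 genes, of 9576 named in the list, held 52 of its 32302 clusters, and all 52 named a single gene. They were measured by xRIP-3′-seq in 12 libraries from powder of adult Drosophila heads, in which RNA was cross-linked to protein with UV light, recovered with an anti-Flag antibody (IP) or left unselected (input), and sequenced from the poly(A) tail. The libraries form 4 groups of 3, namely pum Flag IP and pum Flag input, from flies whose own pum gene carries a Flag-HA tag at the C-terminus of the protein, and w1118 IP and w1118 input, from flies without the tag (spelled w118 in the labels). Age and sex of the flies are not in the labels, flies were pooled as head powder, and the tag is carried wherever pum itself is expressed.

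The 12 count columns of the list carry no library name, so each cluster is described by the sum of its reads over all 12 columns, called pooled reads here. This sum mixes IP and input of both genotypes and gives deeper libraries more weight. Enrichment in the IP, the level in any group and the spread between replicates are therefore not given. Intervals are exact 95% binomial intervals that cover counting error only, since reads without molecular identifiers are not independent molecules. A read marks 1 transcript end whatever the length of the transcript. In head powder, fewer cells of a type and less RNA per cell cannot be told apart.

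GABA is the main inhibitory transmitter of the fly brain. Gad1 makes it from glutamate, VGAT loads it into synaptic vesicles, and Gat, a plasma membrane transporter of glia, clears it from the extracellular space. Rdl is a subunit of the GABA-gated chloride channel that insecticides such as dieldrin and fipronil block, whereas GABA-B-R1 and GABA-B-R2 together form a G protein-coupled receptor with slower action. Pumilio (Pum) is an RNA-binding protein that represses many mRNAs through a short sequence in the 3′ UTR, the Pumilio response element, written TGTANATA in DNA letters, where N is any base. A gene that can end its transcripts at more than 1 poly(A) site can make mRNAs of the same protein with or without such elements.

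The list held 141453778 pooled reads at 31435 distinct positions, and 8881 genes had at least 1 cluster naming them alone, with a median of 1638 pooled reads and 2 clusters per gene. Markers of cell types that a head holds were well covered. The neuronal genes elav, nSyb and brp had 8846 to 53650 pooled reads, the photoreceptor genes ninaE, ninaA and trp 19889 to 465493, the glial genes repo, Eaat1 and alrm 4682 to 30300, and the fat body genes Yp1, Yp2 and Yp3 259089 to 481444. The eggshell genes Cp15, Cp18 and Cp36 and the testis genes dj and bam had no cluster. The testis gene Mst87F had 548 pooled reads.

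The GABA genes spanned a wide range of pooled reads. Rdl had 51199, more than 97.1% of the 8881 genes, and Gat had 20625, more than 93.7%. GABA-B-R2 followed with 4878 pooled reads and GABA-B-R1 with 2345, the subunits of a single receptor lying above 76.1% and 59.0% of genes. VGAT had 839 pooled reads, more than 34.2% of genes. Gad1, which makes the transmitter, had the fewest, at 158 pooled reads, more than only 10.1% of genes. The 6 genes together held 80044 pooled reads, most of them in Rdl and Gat. These levels rest on every listed cluster of a gene, wherever in the gene it lies, and for Rdl the place of the clusters matters, as given below.

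Other genes of the pathway were taken from a list of 13. Of these, 12 had a cluster of their own, with 846 to 62997 pooled reads. Gabat and Ssadh, the enzymes that break GABA down, had 24373 and 24413 pooled reads. The glutamine synthetases Gs1 and Gs2 had 13904 and 62997, the glutamate dehydrogenase Gdh had 18858, and b, an aspartate decarboxylase related to Gad1, had 29269. Receptor genes were lower. Lcch3, another subunit of GABA-gated channels, had 2639 pooled reads, Grd had 846, CG8916 had 3272 and GABA-B-R3 had 902. Of the inward rectifier potassium channels, a class that G protein-coupled receptors can open, Irk2 had 12802 and Irk3 had 1403, while Irk1 lay only in 2 clusters shared with another gene, with 1248 pooled reads. With every cluster counted, Rdl had more pooled reads than the other receptor genes examined. This order was lost when clusters followed by a stretch of A in the genome were left out, which left 3971 pooled reads in Rdl, against 4878 in GABA-B-R2.

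**Figure D1:**
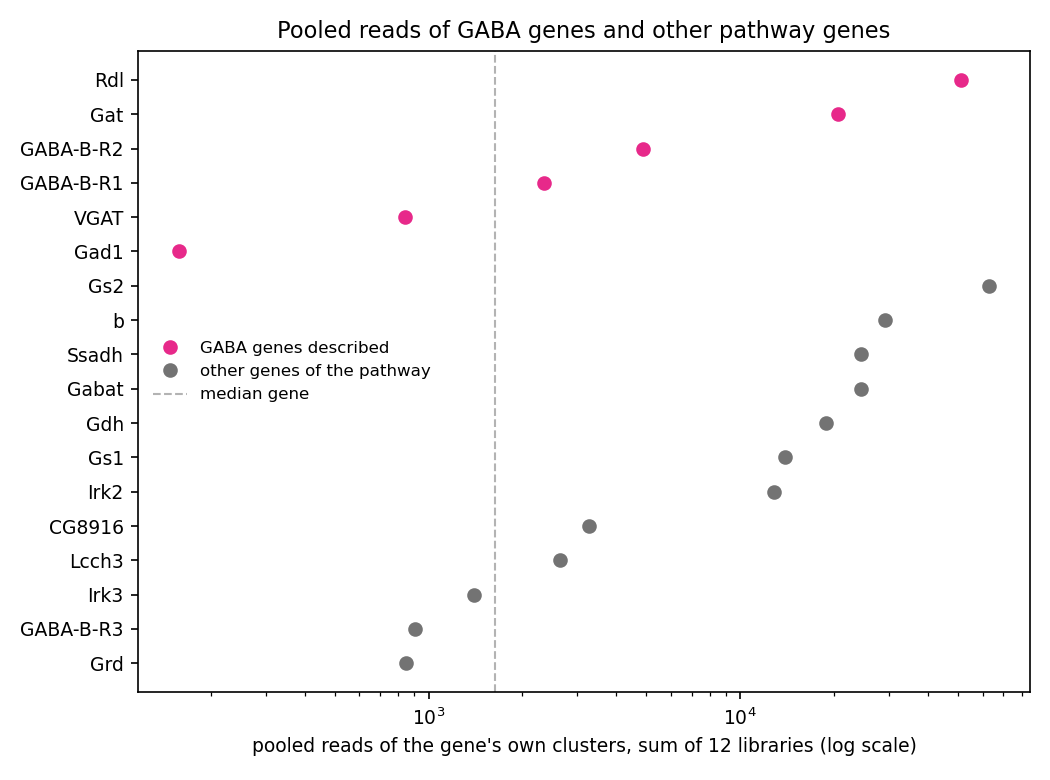
Pooled reads (sum of 12 libraries, log scale) of the 6 GABA genes and, below them, of the 12 other pathway genes with a cluster of their own; each point is 1 gene and the dashed line is the median gene, at 1638. Rdl, at 51199, and Gat, at 20625, lie far to the right of Gad1, at 158.

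Each cluster was placed by its 3′-most base, called its tip, against the Ensembl release 115 annotation. A cluster within 50 bases of an annotated transcript end of its gene was taken as support for that end, and supported clusters up to 50 bases apart were joined. The GABA genes differed in how many ends they used. Gad1, GABA-B-R2 and Gat each had 1 supported end, GABA-B-R1 had 2, Rdl had 3, and VGAT had none within 50 bases. Thus 2 of the 5 genes with a supported end, Rdl and GABA-B-R1, had several, while 16.8% of the 8100 protein-coding genes with a supported end did. With clusters followed by a stretch of A in the genome left out, 0 of the GABA genes had several ends. The 16.8% was not computed without such clusters. Among the 13 other pathway genes, 3 had several ends, namely Gs1, Gs2 and Irk3.

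The share of a gene's pooled reads at annotated ends differed widely among the 6. It was 100% for Gad1 (97.7% to 100%), 96.6% for Gat (96.4% to 96.9%) and 88.4% for GABA-B-R2 (87.5% to 89.3%). It was 69.6% for GABA-B-R1 (67.7% to 71.5%) and only 27.8% for Rdl (27.4% to 28.2%), and of 8553 genes on the annotated chromosomes 9.94% had a lower share than Rdl. The intervals of these 5 genes did not overlap. Over all clusters naming 1 gene, 86.3% of pooled reads lay at annotated ends, and the 12 other pathway genes had 81.3% to 100%. With every cluster counted, most reads lay away from annotated ends in Rdl and in VGAT, whose single cluster lay just beyond the 50-base window. With clusters followed by a stretch of A in the genome left out, as described below, the share was 8.74% for Rdl, 347 of 3971 pooled reads, and 49.3% for GABA-B-R1, 693 of 1406.

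**Figure D2:**
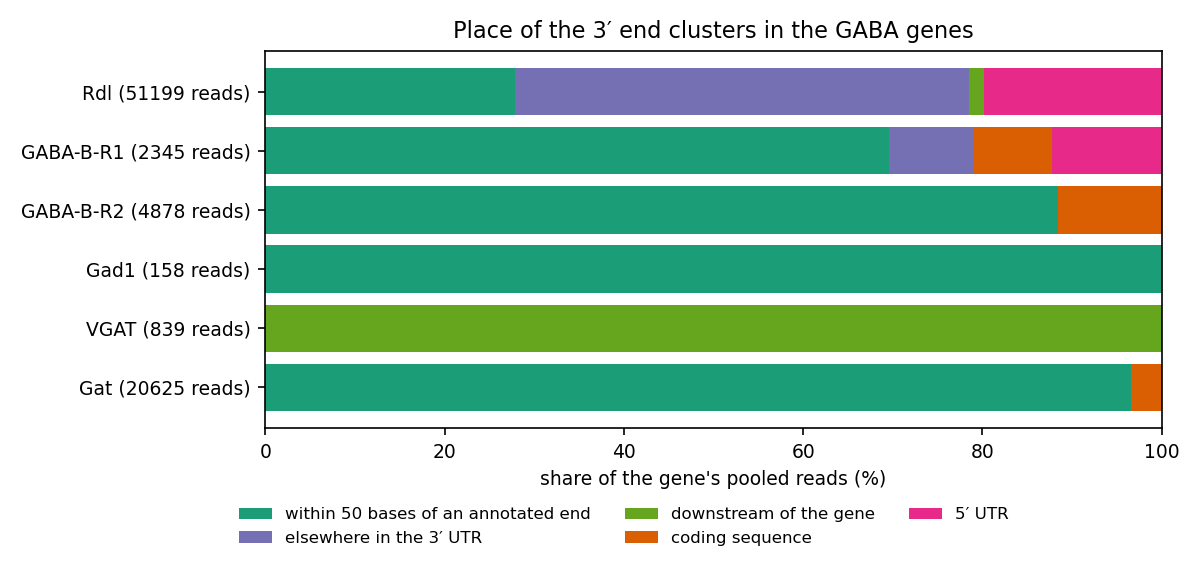
Share of each gene's pooled reads (%, sum of 12 libraries) by the place of the cluster: within 50 bases of an annotated end, elsewhere in the 3′ UTR, downstream of the gene, in coding sequence or in the 5′ UTR. Rdl has 50.7% elsewhere in the 3′ UTR and 19.8% in the 5′ UTR, whereas Gat has 96.6% at its annotated end.

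Rdl (FBgn0004244, chr3L:9145838-9182149 of dm6, minus strand) had 35 clusters, and only 17 of the 8881 genes had more. Its longest 3′ UTR measured 5113 bases, longer than that of 99.3% of the 8100 genes, whose median was 258. All 3 annotated ends were supported. The proximal end, at base 9150615, leaves a 3′ UTR of 336 bases and held 5494 pooled reads, 38.6% of the reads at supported ends (37.8% to 39.4%). The middle end, at base 9149398, leaves 1553 bases and held 8334 pooled reads in 2 clusters, 58.5% (57.7% to 59.3%). The distal end, at base 9145838, leaves the full 5113 bases and held 413 pooled reads in 2 clusters, 2.90% (2.63% to 3.19%). Counted this way, the longest annotated form was the least read, and the intervals of the 3 ends did not overlap. With clusters followed by a stretch of A left out, the distal end was the only supported end, with 347 pooled reads. The sequence up to the tip of that cluster also ends in a run of A, which this filter does not count.

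The bases just before the tips show what these ends look like in the genome. Each line gives 30 bases of dm6 on the gene's strand up to the tip of the most-read cluster, with a poly(A) signal hexamer in capitals. The hexamers searched, on the strand of the gene in the 40 bases up to the tip, were the canonical AATAAA, the common variant ATTAAA and the weaker variant AATATA. The fourth line is a cluster of 818 pooled reads 91 bases past the distal end.
Rdl proximal end, chr3L:9150610-9150639: tgttaaatagatttacacagAATATAaaag
Rdl middle end, chr3L:9149396-9149425: taaggtataacaaatagttgctaaaaccaa
Rdl distal end, chr3L:9145831-9145860: ttattaagttaaatactaaaactaaaaaaa
Rdl downstream cluster, chr3L:9145747-9145776: agtgaatataAATAAAgatatgtaaaaaaa
The hexamer of the proximal end ended 4 bases before the tip, inside the cluster itself, which spans bases 9150610 to 9150622. At the ends of Gad1, GABA-B-R2 and Gat and the distal end of GABA-B-R1, AATAAA ended 13 to 25 bases before the tip. No hexamer lay before the middle or the distal Rdl tip. The cluster past the annotated gene had AATAAA ending 14 bases before its tip, which the annotated distal end lacked. In the next 10 genomic bases this cluster had 4 A, against 5 A at the distal tip. Both lines end in a run of A up to the tip, which a count after the tip leaves out. Of the 5 Rdl clusters at annotated ends 1 had a hexamer, against 68.2% over all genes, and of the 2 downstream clusters 1 did, against 67.6%.

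Most Rdl reads lay away from all 3 ends. In the 3′ UTR, 22 further clusters held 25953 pooled reads, 50.7% of the gene (50.3% to 51.1%), with 59 to 7115 pooled reads each and a median of 210. The most-read of these had its tip 4339 bases past the stop codon and held 7115 pooled reads, another 3311 bases past the stop codon held 6659, and one 106 bases past the stop codon held 6271. Each of these held more pooled reads than the annotated proximal end. In the 5′ UTR, 6 clusters held 10141 pooled reads, 19.8% (19.5% to 20.2%), of which 1 cluster with its tip at base 9177423 held 6631 and 1 at base 9177956 held 2247. A cluster in the 5′ UTR was found for 1063 of the 8881 genes, and 5′ UTRs held 0.961% of the reads of all clusters naming 1 gene. Downstream of the gene, 2 clusters held 864 pooled reads, 1.69% (1.58% to 1.80%).

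The most-read of these clusters had a feature in common in the sequence after them. A stretch of A was counted where the 10 genomic bases after the tip held 6 A in a row or at least 7 A. A primer on the poly(A) tail can also anneal to such a stretch inside a transcript, and the study's methods excluded bases followed by one unless they lay near an annotated end. In the list, 15.9% of 30700 clusters were followed by a stretch, and these held 21887315 of 109592755 pooled reads on the chromosomes. Of the 4872 such clusters, 3019 lay within 50 bases of an annotated end, near where the study made its exception. Another 1169 lay elsewhere in 3′ UTRs. In Rdl, 15 of 35 clusters were followed by a stretch, and these 15 held 47228 pooled reads, 92.2% of the gene. Of all genes, 95.8% had a lower share, and the median gene had 0%. By place, a stretch followed 4 of the 5 Rdl clusters at annotated ends, against 19.1% of such clusters over all genes, 8 of the 22 elsewhere in the 3′ UTR, against 16.6%, 3 of the 6 in the 5′ UTR, against 6.85%, and 0 of the 2 downstream, against 6.02%. The other 20 Rdl clusters held 3971 pooled reads.

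Reads and downstream A went together within Rdl. All 9 clusters with at least 1000 pooled reads were followed by an A stretch and had 7 to 10 A in the next 10 bases, and they held 45444 pooled reads, 88.8% of the gene. The 26 clusters under 1000 pooled reads, with 46 to 818 each, held 5755, and 6 of them were followed by an A stretch. Their median was 6 A, and over all genes the median was 5 A for clusters elsewhere in the 3′ UTR, where most of these lay, and 4 A at annotated ends. A hexamer stood before 5 of the 35 clusters, with 8987 pooled reads, 17.6% of the gene. The proximal end, whose hexamer lies inside the cluster, held 5494 of these reads. Of the 5 clusters, 2 were among the 22 elsewhere in the 3′ UTR, against 36.0% of such clusters over all genes. In the 5′ UTR 1 of the 6 had a hexamer, against 16.5%. Whether the A stretches had a part in the Rdl reads was not tested.

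Windows across the tips show the stretches. Each line gives the last 10 bases up to the tip, the next 10 genomic bases in capitals and 10 more, on the strand of the gene. The first 3 are the most-read Rdl clusters at an annotated end, elsewhere in the 3′ UTR and in the 5′ UTR, with 8263, 7115 and 6631 pooled reads, and the last is the single end of Gat, which had the most reads of any cluster in the 6 genes.
Rdl middle end, chr3L:9149376-9149405: ctaaaaccaaAAAAAAAAAAaaacaaaaca
Rdl 3′ UTR cluster, chr3L:9146592-9146621: caaattccaaAAAAAAAATAagaaattcgc
Rdl 5′ UTR cluster, chr3L:9177403-9177432: caactaaacaAAAAAAAAGGgaaaacaaac
Gat end, chr4:635343-635372: atccacacaaGCCTTAATCGaagattaacg
The 3 Rdl windows have 10, 9 and 8 A after the tip, and the Gat window has 2. The middle annotated end of Rdl, the most-read of its ends, thus had 10 A in the genome and no hexamer. With A-stretch clusters left out, Rdl kept 1 supported end, the distal one, with 347 pooled reads. That cluster follows a run of A up to its tip, which a count after the tip leaves out.

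**Figure D3:**
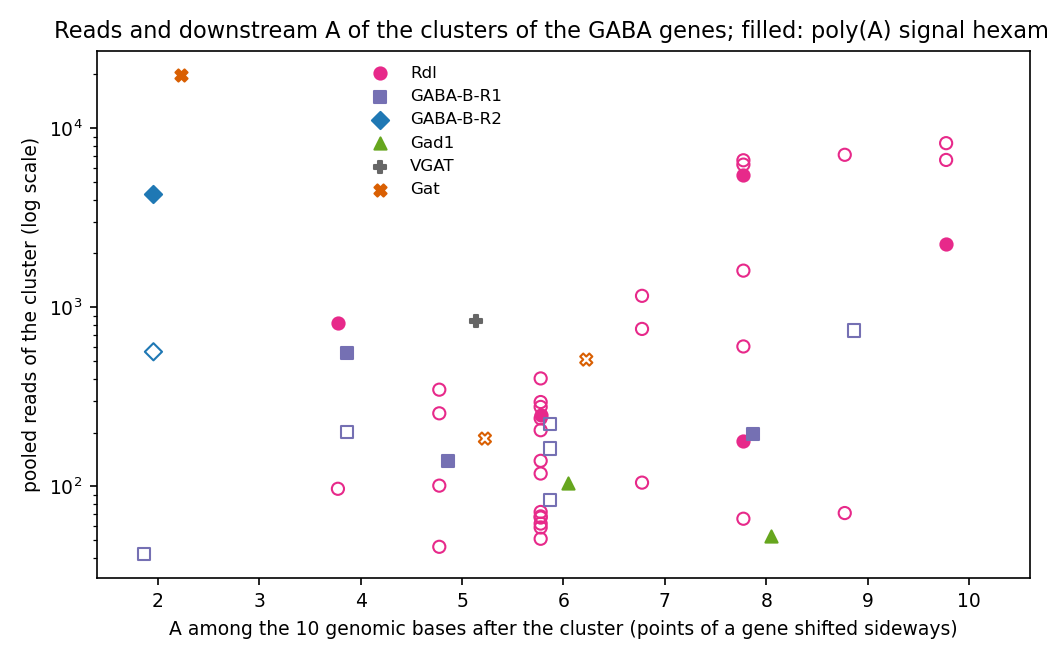
Pooled reads of each of the 52 clusters (log scale, sum of 12 libraries) against the number of A among the 10 genomic bases after it; symbols mark the gene, points of a gene are shifted sideways, and filled symbols have a poly(A) signal hexamer in the 40 bases up to the tip. The 9 Rdl clusters above 1000 pooled reads lie at 7 to 10 A, whereas the ends of Gat and GABA-B-R2, with 19929 and 4313 pooled reads, lie at 2 A.

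Pumilio response elements were then searched as TGTANATA on the strand of the gene in the longest 3′ UTR with a supported end. Rdl had 3 and GABA-B-R1 had 1, so 2 of the 5 GABA genes with a supported end had at least 1 element, against 21.9% of the 8100 genes. These shares were not matched for length. The 3′ UTRs of Rdl and GABA-B-R1 measured 5113 and 2047 bases, against a median of 258 over the 8100 genes. No element was found in Gad1, GABA-B-R2 or Gat, nor in the annotated 3′ UTR of VGAT. Of the other pathway genes, 1 of 12 had an element, Gs1. None of the 6 GABA genes had TGTANATA in the coding sequence or 5′ UTR of the 1 transcript searched. That was the transcript with the longest annotated 3′ UTR, and other transcripts of a gene were not searched there. A match shows that the letters are present and does not show binding. The 4 elements, in capitals with 8 bases on each side, are these.
Rdl element 1, chr3L:9149325-9149332: tttcaattTGTAAATAcacacaga
Rdl element 2, chr3L:9148695-9148702: caagtataTGTACATAgagtatgg
Rdl element 3, chr3L:9148523-9148530: caattaacTGTATATAcgaaaagt
GABA-B-R1 element, chr2L:15034234-15034241: atgtatatTGTATATAgagcattt
The coordinates are those of the 8 capital bases. The third Rdl element and the GABA-B-R1 element have the same 8 letters, and the first Rdl element is the only TGTAAATA.

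All 3 Rdl elements lay between the middle and the distal end. They stood at bases 1619 to 1626, 2249 to 2256 and 2421 to 2428 of the 3′ UTR, which put the first 66 bases past the middle end and 1283 past the proximal end. The forms ending at the proximal and the middle site therefore carry none. The shorter core TGTANA, which lies inside every TGTANATA, occurred 12 times, with none in the 336 bases of the shortest form, 2 in the next 1217 bases and 10 in the last 3560 bases. That last stretch is 69.6% of the 3′ UTR. Per length, Rdl had 0.587 elements per kilobase of 3′ UTR and GABA-B-R1 had 0.489. The density over all genes was not computed.

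The GABA-B-R1 element lay in the same relation to its ends, with its first base 250 bases past the proximal end and its last base 463 bases before the distal end, at bases 1577 to 1584 of the 3′ UTR. In both genes, then, every TGTANATA stood beyond the most proximal supported end, which was so in 49.4% of the 443 genes with several supported ends and at least 1 element. The core TGTANA occurred 8 times in GABA-B-R1, 4 times on each side of the proximal end. Gad1 had 7 copies of the core, VGAT had 2 in its annotated 3′ UTR, GABA-B-R2 had 1 and Gat had none in 1183 bases.

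How many reads came from transcripts long enough to hold an element depends on which clusters are counted. At the 3 annotated Rdl ends, 2.90% of reads lay past the elements. Over all 29 clusters in or downstream of the 3′ UTR, with 41058 pooled reads, 18496 lay past at least 1 whole element, 45.0% (44.6% to 45.5%), and 16342 lay past all 3, 39.8% (39.3% to 40.3%). The remaining 22562 pooled reads, 55.0%, came from 10 clusters with no whole element before them, and 1 of these, with 67 pooled reads, had its tip inside element 1. Of the 14 clusters past all 3 elements, those with 7115 and 6659 pooled reads held most, and both were followed by an A stretch. The same held before the elements. Of the 10 clusters there, those with 8263, 6271 and 5494 pooled reads held most, and each was followed by an A stretch. The shares past an element were not computed with A-stretch clusters left out. In GABA-B-R1, 889 of 1854 pooled reads lay past the element, 48.0% (45.7% to 50.3%).

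**Figure D4:**
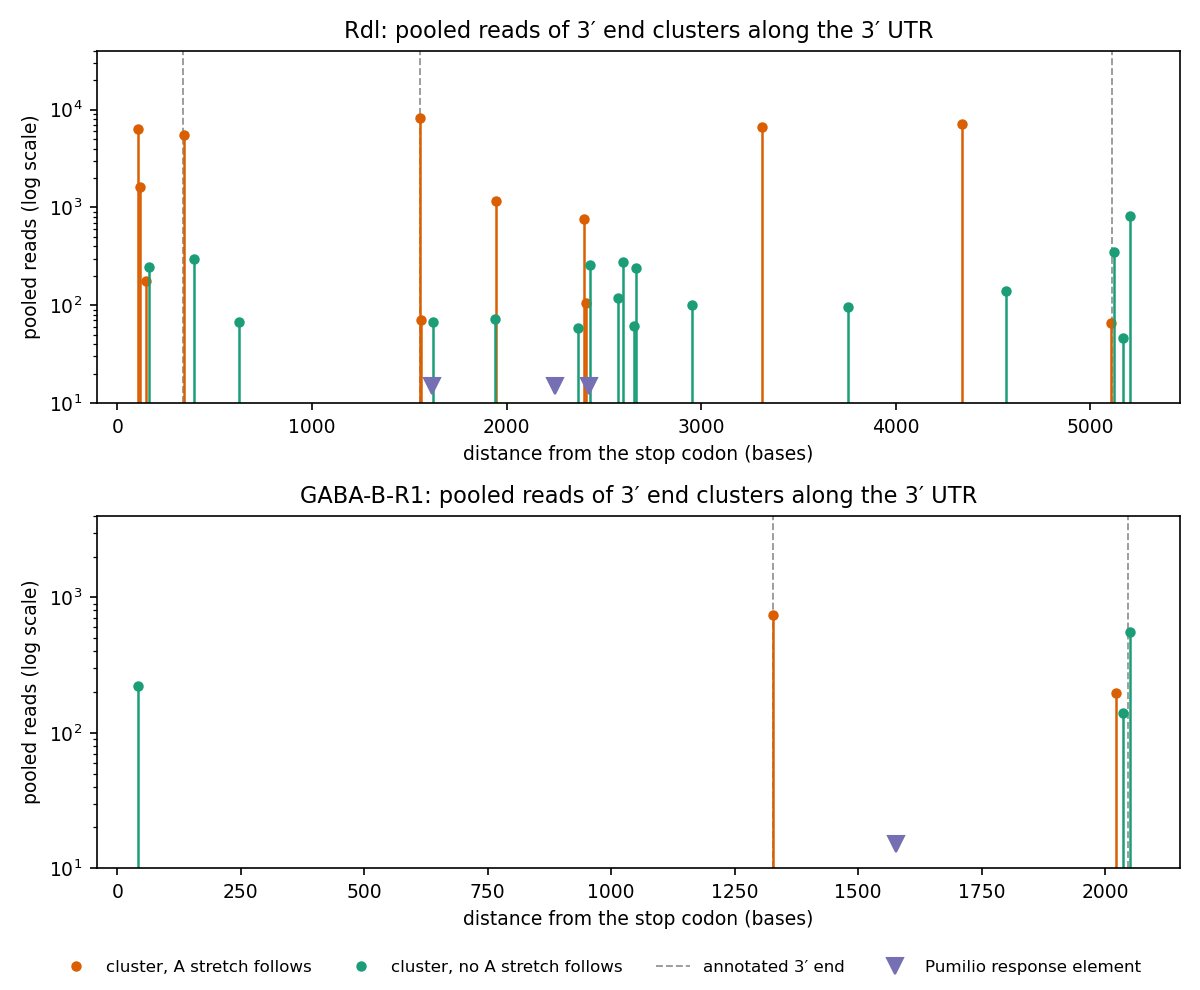
Pooled reads (log scale, sum of 12 libraries) of clusters in and downstream of the 3′ UTR of Rdl, above, and GABA-B-R1, below, by distance from the stop codon in bases; orange clusters are followed by an A stretch and green ones are not, dashed lines are annotated ends and triangles are Pumilio response elements. All 3 Rdl elements and the GABA-B-R1 element lie between the last and the preceding annotated end.

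GABA-B-R1 (FBgn0260446, chr2L:15016331-15034704, plus strand), the subunit that binds the ligand in the mammalian receptor, had 9 clusters. Its 3′ UTR of 2047 bases was longer than that of 93.6% of the 8100 genes. The distal end, at base 15034704, held 889 pooled reads in clusters of 196, 139 and 554, which was 54.5% of the reads at supported ends (52.0% to 56.9%). The proximal end, at base 15033984, leaves 1327 bases and held 743 pooled reads in 1 cluster, 45.5% (43.1% to 48.0%). With every cluster counted, the longer form of GABA-B-R1 was read the more, in contrast to Rdl. This contrast was lost with A-stretch clusters left out. Only the distal end was then supported in both genes, with 347 pooled reads in Rdl and 693 in GABA-B-R1. The Rdl cluster follows a run of A up to its tip, which the filter does not count. The bases before both tips of GABA-B-R1 are given here, with the hexamer in capitals. The distal window stops 1 base before the tip.
GABA-B-R1 distal end, chr2L:15034678-15034707: AATAAAaaacacaaaacagaattgaacaaa
GABA-B-R1 proximal end, chr2L:15033955-15033984: gaaatgaaagactttaaaatctaagccgtt
The most-read cluster of the distal end had 4 A after it and AATAAA before it. The proximal end had no hexamer and 9 A after it, as its window across the tip shows with the next 10 bases in capitals.
GABA-B-R1 proximal end, chr2L:15033975-15034004: ctaagccgttAAAAAAATAAagaaaggaaa
The element-free form of GABA-B-R1 thus rests on a cluster followed by an A stretch, and without such clusters the gene kept 693 pooled reads at 1 end.

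The other 5 clusters of GABA-B-R1 were small. The cluster 41 bases past the stop codon held 222 pooled reads, 9.47% of the gene. In the 5′ UTR, 2 clusters of 202 and 84 pooled reads made up 12.2% (10.9% to 13.6%), so that both GABA-B-R1 and Rdl had clusters there. These were the 2 GABA genes with 5′ UTRs over 1000 bases. That length was measured only in the transcript of each gene with the longest annotated 3′ UTR. In coding sequence, clusters of 163 and 42 pooled reads made up 8.74% (7.63% to 9.96%). None of these 5 clusters had a hexamer or an A stretch. Neither did any of the 5 coding clusters of GABA-B-R1, GABA-B-R2 and Gat, which is near the background over all genes, where 5.25% of coding clusters had a hexamer and 5.97% an A stretch.

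GABA-B-R2 (FBgn0027575, chr3R:21770333-21775840, minus strand), the subunit that couples the receptor to its G protein in mammals, had a simple 3′ end. Its 1 supported end held 4313 pooled reads, 88.4% of the gene, with a 3′ UTR of 196 bases, AATAAA ending 22 bases before the tip and 2 A after it. The bases up to the tip were as follows.
GABA-B-R2 end, chr3R:21770331-21770360: gaAATAAAttacaatttaaaataatcatat
The partner subunits of this receptor therefore differed in their 3′ UTRs, with 2047 bases and 1 element in GABA-B-R1, and 196 bases and no element in GABA-B-R2.

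The remaining 565 pooled reads of GABA-B-R2, 11.6% (10.7% to 12.5%), lay in 1 cluster in coding sequence. Its tip, at base 21771734, was the last base of an exon. The genome has 2 A among the next 10 bases, at the start of the intron, whereas the spliced RNA, continued into the next exon at bases 21771676 to 21771210, has 8 A. Both readings are given below, with the 10 bases after the tip in capitals.
GABA-B-R2 coding cluster, genome, chr3R:21771714-21771743: cgcttcctccGTAAGTTCTTaaattttggt
GABA-B-R2 coding cluster, spliced RNA, chr3R:21771734-21771743 joined to chr3R:21771657-21771676: cgcttcctccCAAAAAGAAAaagcaatcga
Of the 5 coding clusters in the 6 genes, 2 lay within 2 bases of the end of an internal exon, against 4.80% of 2227 clusters in coding sequence over all genes. The other was the 42-read cluster of GABA-B-R1, with its tip 2 bases before the end of an exon, 2 A after it in the genome and 5 A in the spliced RNA. A count of A in the genome alone misses the A-rich sequence that follows the GABA-B-R2 cluster in its mRNA. Its part in these reads was not tested.

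Gad1 (FBgn0004516, chr3L:4074077-4088744, minus strand), the glutamate decarboxylase of neurons, was represented by 2 single-base clusters of 105 and 53 pooled reads at its 1 annotated end, with a 3′ UTR of 1288 bases. The larger cluster had AATAAA ending 13 bases before its tip and 6 A after it, and the smaller, which lay 25 bases before it, was followed by an A stretch. The bases up to the larger tip were these.
Gad1 end, chr3L:4074078-4074107: tgagtaaaataAATAAAagtaatcaaagcg
No read was listed elsewhere in the gene. Faa, on the same strand, begins 123 bases past the annotated Gad1 end, and clusters naming Faa were not counted for Gad1. With 158 pooled reads over 12 libraries, the shares of the 2 clusters are known only to 66.5% (58.5% to 73.8%) and 33.5% (26.2% to 41.5%).

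Gat (FBgn0039915, chr4:629691-635350, plus strand), the transporter that glia use to take up GABA, had the most concentrated pattern among the well-read genes. A single end held 19929 of its 20625 pooled reads, with AATAAA ending 20 bases before the tip.
Gat end, chr4:635323-635352: gtcaAATAAAttgaatatctatccacacaa
The other 696 pooled reads, 3.37% (3.13% to 3.63%), lay in 2 coding clusters of 511 and 185 with their tips at bases 632261 and 632272, with 6 and 5 A after them and no hexamer.

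VGAT (FBgn0033911, chr2R:14198478-14201249, minus strand), the vesicular transporter, had 1 single-base cluster of 839 pooled reads. It lay 64 bases past the annotated end, with AATAAA in the 40 bases up to the tip and 5 A after it. At a window of 100 bases in place of 50 it counted as a supported end. The annotated 3′ UTR of 522 bases thus falls short of the only end listed. The vesicular and the plasma membrane transporter therefore showed 1 end each and no TGTANATA in the annotated 3′ UTR, unlike the receptor genes Rdl and GABA-B-R1. The 64 bases past the annotated VGAT end were not searched. Other receptor genes resembled the transporters, since GABA-B-R2, Lcch3, Grd, CG8916 and GABA-B-R3 each had 1 supported end and no TGTANATA.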

How the data were processed

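Libraries were made from adult head RNA with the QuantSeq REV kit. The authors trimmed reads with fastp, mapped them with STAR 2.6.1b to dm6 without spliced alignment, excluded bases followed by A stretches unless near annotated ends, kept signal up to 500 bases downstream of genes, merged clusters over libraries and counted reads again in each library. The deposited table holds these raw counts in 12 columns that name no library, so depth per library is unknown and only their sum was used, with no test between groups. Each position was counted once, and clusters naming several genes were left out. Starts were read as 0-based. Clusters were compared with Ensembl release 115 and the dm6 genome sequence (RefSeq) in Python 3.11.15, with intervals from SciPy 1.17.1. The steps were tested on simulated data. The 6 genes, the pathway list and the markers were chosen with earlier results of these data known, and all 6 genes are described. Alternatives were other windows, joining distances, motifs and cluster filters.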

Additional observations from a re-analysis of the deposited data

How the results depend on the processing

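No paired analysis was possible because the count columns carry no replicate number, and leaving out single libraries could not be run for the same reason. Over all 6 genes the values were 80044 pooled reads, 8 supported ends, 50.3% of reads at them, 83.5% of those at each gene's most-read end, 60.7% beyond the most proximal end in Rdl and GABA-B-R1, and 4 elements in 2 genes. With A-stretch clusters left out, 31824 pooled reads and 5 ends remained, 79.8% of reads lay at ends, 100% of those at the most-read end, and 0 genes had several ends, so the share beyond the proximal end had no value. The pooled share rose while the share fell to 8.74% in Rdl, against 27.8% with every cluster, and to 49.3% in GABA-B-R1, against 69.6%, and stayed at 96.6% in Gat, which then held 20625 of the 31824 pooled reads. The order of the Rdl ends was lost, since the distal end, with 2.90% of reads at ends before, held all 347. Its remaining cluster follows a run of A up to the tip, which this filter does not count. Pooled reads were then 3971 in Rdl, below the 4878 of GABA-B-R2, 1406 in GABA-B-R1 and 105 in Gad1. At a window of 100 bases the shares were 52.9% at ends, 81.4% at the most-read end and 61.8% beyond the most proximal end. At that window the VGAT cluster became a supported end and Rdl had 4. The core TGTANA gave 28 matches in 4 genes, and TGTAAATA gave 1 in 1 gene. Of 147 values for single genes under settings that could act on them, 111 were identical and 36 differed, of which 11 did so with A-stretch clusters left out and 9 at a minimum of 100 pooled reads per cluster. Keeping clusters that name several genes or counting every listed row could not change these genes, whose 52 clusters each name 1 gene and are listed once. Values for Gad1 rest on only 158 pooled reads.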

Other observations

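Convergent neighbours lay close to 3 of the GABA genes. The last Rdl tip stood 54 bases from the annotated end of nwk, which lies on the opposite strand and had 9512 pooled reads in 5 clusters, and 49 bases from the tip of the most-read nwk cluster. The VGAT tip stood 46 bases from the annotated end of Sdb, which had 1747 pooled reads in 5 clusters, and 40 bases from its most-read tip. GABA-B-R2 ended 52 bases from the annotated end of Burs, which encodes a subunit of the hormone bursicon and had no cluster of its own. In Rdl and VGAT the cluster next to the neighbour lay past the annotated end of the gene and had AATAAA before it.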
